A study of Mus musculus with 48 samples.

Results

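Levels of 6 genes of nicotinamide adenine dinucleotide (NAD) metabolism were followed over 1 day in mouse epidermis: Nampt, Nmnat1, Nmnat3, Naprt, Nadk and Sirt1. They were picked by name, from what their products do, and were matched to the count table by Entrez gene ID. All 6 were found among its 27179 gene IDs, and all 6 were among the 17068 genes that passed the filter on low counts and were tested. The 48 libraries were polyA RNA libraries from suspensions of epidermal cells of mice aged 47 weeks. The animals were labelled either knocked out for collagen XIV (ColXIV KO) or ColXIV WT, and were taken at Zeitgeber times (ZT, hours counted from lights on) 0, 4, 8, 12, 16 and 20. Each of the 12 groups of label and time held 4 libraries that the labels call biological replicates. The labels name no other allele and no agent.

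NAD is used up by enzymes that cleave it, and cells rebuild it mainly from nicotinamide, one of the products of that cleavage. NAMPT joins nicotinamide to a phosphoribosyl group, the slow step of this salvage, and the NMNAT enzymes then complete NAD. NAPRT starts a parallel branch from nicotinic acid, NADK turns NAD into NADP, and SIRT1 spends NAD to remove acetyl groups from proteins. In mouse liver the clock factors CLOCK and BMAL1 act on Nampt, and SIRT1 acts back on the clock, so NAD metabolism and daily rhythm are linked there.

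RNA of the targeted gene was higher under the KO label than under the WT label. Col14a1, which encodes collagen XIV, averaged 61.3 ± 8.41 CPM in the 24 libraries labelled KO (45.3 to 80.1) and 1.23 ± 0.939 CPM in the 24 labelled WT (0.261 to 4.13; SD). CPM are counts scaled to a common library size. Gm5481, a second gene looked at by label, is not the targeted gene and is no independent check of the labels. It averaged 19.5 ± 4.98 CPM in KO (9.78 to 28.4). In WT it averaged 1.64 ± 4.20 CPM (0 to 14.1), so the ranges of the labels overlapped for this gene. The libraries are therefore called "labelled KO" and "labelled WT" throughout, and KO and WT below stand for these labels. The Col14a1 level did not bear the labels out, and the reason was not tested. A difference between them has the direction of the label, not of a checked genotype. Library totals ran from 35.6 to 43.7 M counts, with medians of 40.6 M for KO and 40.8 M for WT. The libraries carried keratinocyte RNA, with all 10 markers of that list read in every library and summed levels of 34864 to 50281 CPM in KO and 32382 to 48967 CPM in WT. Markers of neutrophils, adipocytes and endothelium summed to at most 5.39 CPM in any library, while those of fibroblasts and dermis spanned 5.12 to 143 CPM in KO and 6.15 to 320 CPM in WT. Langerhans and dendritic cell markers summed to 293 to 667 CPM in KO and 274 to 816 CPM in WT. T cell markers spanned 81.7 to 159 CPM in KO and 76.6 to 169 CPM in WT. Sebaceous gland markers spanned 466 to 1215 CPM in KO and 519 to 1654 CPM in WT. Most of that sum was Scd1, with a median of 775 CPM over the libraries. The median was 35.0 CPM for Far2 and 1.14 to 6.11 CPM for Mc5r, Awat1, Awat2, Elovl3 and Pparg. Anagen hair markers spanned 21.6 to 186 CPM in KO and 28.3 to 320 CPM in WT. Macrophage, melanocyte and skeletal muscle markers summed to at most 47.5 CPM. Xist, read from the inactive X chromosome of females, was above 100 CPM in 9 of 24 KO and 15 of 24 WT libraries, so sex is unevenly spread over the labels. In bulk RNA, fewer cells of a type and less RNA per cell cannot be told apart.

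In GRCm38, the annotation places Nampt (Entrez 59027) at chr12:32820335-32853369 on the plus strand, Nmnat1 (Entrez 66454) at chr4:149467569-149485210 on the minus strand and Nmnat3 (Entrez 74080) at chr9:98287433-98420533 on the plus strand. It places Naprt (Entrez 223646) at chr15:75890963-75894481 on the minus strand, Nadk (Entrez 192185) at chr4:155562381-155591001 on the plus strand and Sirt1 (Entrez 93759) at chr10:63319005-63339035 on the minus strand. Per kilobase of exon, Nadk was the most abundant of the 6 genes, and the NMNAT genes were the least abundant. Mean levels over the 48 libraries were 24.2 CPM per kb for Nadk, 11.1 for Naprt, 9.86 for Nampt, 8.40 for Sirt1, 1.63 for Nmnat3 and 0.994 for Nmnat1. Nmnat1 had between 84 and 171 counts per library, and the other 5 genes had at least 230 in each library. All 6 varied little from library to library. The ratio of the highest to the lowest of the 48 libraries was 1.41 for Naprt, 1.48 for Nadk, 1.72 for Nampt, 1.88 for Nmnat3, 1.98 for Nmnat1 and 2.11 for Sirt1.

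The promoters of the 3 genes with the clearest time courses are shown. Of these, 2 hold the letters of the E-box, the motif of CLOCK and BMAL1. Binding was not measured, and only promoters with a match to a searched motif are shown. Each is the 250 bases before an annotated start in RefSeq (GRCm38.p6), written 5′ to 3′ on the gene's strand, with matches to a searched motif in capitals. RefSeq windows of 300 bases, from 250 before to 50 after a start, were on hand for 5 of the 6 genes and were searched on both strands for CACGTG (E-box), AGGTCA (nuclear receptor half-site), TGACTCA (AP-1) and TGACGTCA (CRE). None of these motifs overlaps another in the sequences below.
Nampt, chr12:32820085-32820334, plus strand: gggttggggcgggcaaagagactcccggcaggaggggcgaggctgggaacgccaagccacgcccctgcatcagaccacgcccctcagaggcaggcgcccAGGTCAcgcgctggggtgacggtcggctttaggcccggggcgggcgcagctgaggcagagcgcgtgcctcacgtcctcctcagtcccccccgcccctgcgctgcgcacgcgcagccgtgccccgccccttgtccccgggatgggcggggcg
Nadk, second start, chr4:155563565-155563814, plus strand: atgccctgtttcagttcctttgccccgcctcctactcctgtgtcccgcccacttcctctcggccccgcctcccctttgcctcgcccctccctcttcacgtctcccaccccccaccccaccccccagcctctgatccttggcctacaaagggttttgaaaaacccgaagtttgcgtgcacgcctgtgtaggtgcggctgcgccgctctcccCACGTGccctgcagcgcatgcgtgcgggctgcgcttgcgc
Sirt1, chr10:63339036-63339285, minus strand: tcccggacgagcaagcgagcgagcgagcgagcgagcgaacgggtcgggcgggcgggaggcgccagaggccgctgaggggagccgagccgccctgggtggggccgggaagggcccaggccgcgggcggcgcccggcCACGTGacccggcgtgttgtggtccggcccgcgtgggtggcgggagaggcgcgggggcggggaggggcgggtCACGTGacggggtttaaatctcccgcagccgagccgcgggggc

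Sirt1 had an E-box 115 bases and another 43 bases before its start, and the second start of Nadk had one 40 bases before it. The window of the first start of Nadk, chr4:155562131-155562430, held no match to any searched motif. An E-box of these letters was found in 7.15% of all 32851 RefSeq windows. The Nampt window held no such E-box and had the half-site 151 bases before its start. Nmnat3 had the half-site 23 bases after an annotated start that lies inside the gene span given above (window chr9:98296320-98296619). That half-site was found in 16.3% of all windows. The windows of the 5 genes held no AP-1 or CRE match, against shares of 5.20% and 1.79% of all windows. A match describes the letters only, and no match says only that the letters are not in this window.

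**Figure D1:**
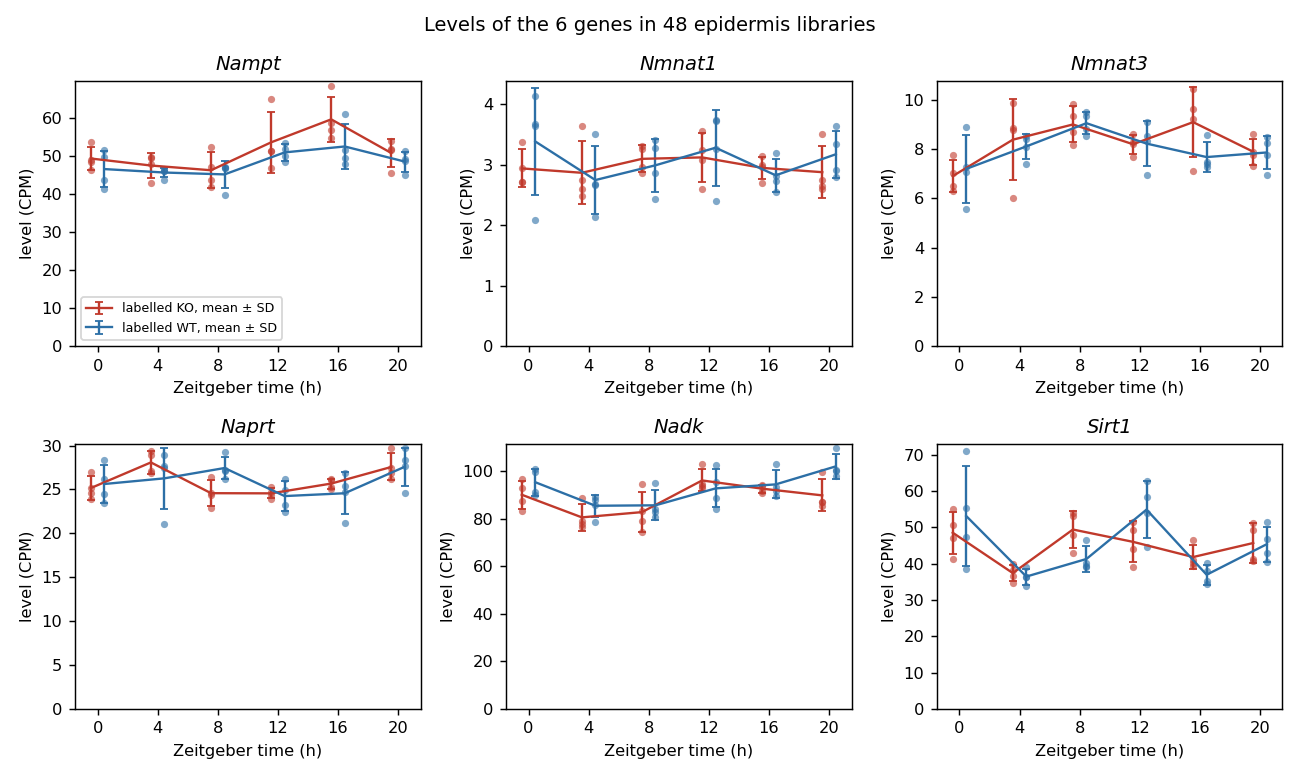
Level of each of the 6 genes (CPM, vertical axis from 0) against Zeitgeber time in hours. Points are libraries, lines join group means with SD bars (4 libraries a group), and KO is drawn left of WT. Nampt is highest at ZT16 in both labels, and Sirt1 is low at ZT4 and ZT16 in both.

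The first question was whether the 6 genes differed between the labels. None did at the threshold used, an adjusted p under 0.05 in edgeR's quasi-likelihood test over all 17068 genes (0 of 6 called for the difference averaged over the 6 times, against 0.34% of all genes), and DESeq2 and limma-voom called none of the 6 either. At an unadjusted p under 0.05 there were 2 of 6, Nampt and Nadk, against 6.9% of all genes. Their differences were a few percent in size. The median log2 fold change of all genes tested was -0.0016.

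Nampt averaged 51.3 ± 6.40 CPM in KO and 48.3 ± 4.33 CPM in WT (SD, n = 24 each), a log2 fold change of 0.08 ± 0.04 (SE; adjusted p = 0.636 in edgeR). The KO mean was the higher one at 6 of 6 times. The widest gap was at ZT16, where KO libraries had 54.9, 68.4, 58.7 and 57.0 CPM and WT libraries had 49.7, 51.8, 47.9 and 61.1 CPM. The ranges overlapped through the highest WT library, and the log2 fold change there was 0.18 ± 0.09 (SE; adjusted p = 0.495 in edgeR). Without the KO library with 68.4 CPM it was 0.12 (adjusted p = 0.863). The averaged fold change of Nampt was 0.03 once sex-linked expression was a term in the fit (adjusted p = 0.679 in edgeR).

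Nadk, the cytosolic kinase that makes NADP, averaged 88.6 ± 7.58 CPM in KO and 92.5 ± 7.96 CPM in WT, a log2 fold change of -0.06 ± 0.03 (SE; adjusted p = 0.663 in edgeR), with the KO mean the lower one at 5 of 6 times. At ZT20, KO libraries had 86.7, 99.7, 85.4 and 87.1 CPM and WT libraries had 97.8, 100.2, 100.03 and 110 CPM. Of the KO libraries, 1 reached the WT range and the other 3 were below it. The log2 fold change at ZT20 was -0.18 ± 0.07 (SE; adjusted p = 0.579 in edgeR). It was -0.09 with terms for sex-linked expression and -0.11 with a term for fibroblast and dermis markers. Xist was read above 100 CPM in 1 of 4 KO and 4 of 4 WT libraries at ZT20. With terms for sex-linked expression, the averaged value was -0.03 (adjusted p = 0.491 in edgeR).

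The intervals of the other 4 genes spanned 0. Naprt, which lies on chromosome 15 as Col14a1 does, averaged 25.9 ± 1.77 CPM in KO and 25.9 ± 2.43 CPM in WT, with a log2 fold change of -0.002 ± 0.03 (SE; 95% interval -0.06 to 0.06). Sirt1 averaged 44.8 ± 5.94 CPM in KO and 44.7 ± 9.69 CPM in WT, with a log2 fold change of 0.02 ± 0.05 (SE; interval -0.08 to 0.11). For Nmnat1, the NMNAT of the nucleus, KO averaged 2.97 ± 0.339 CPM and WT averaged 3.06 ± 0.554 CPM, with an interval of -0.17 to 0.09. For Nmnat3, usually placed in mitochondria, the averages were 8.25 ± 1.17 CPM in KO and 8.02 ± 0.928 CPM in WT, with an interval of -0.06 to 0.13. Differences within these bounds are compatible with the values of 24 libraries a label. The intervals are not adjusted over genes, and the smallest difference that would be called was not worked out.

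At single times the 36 fold changes lay between -0.26 and 0.26 on the log2 scale, and none passed the threshold after adjustment (lowest adjusted p = 0.495 in edgeR). The shares of all genes called were 0.0527% (ZT0), 0.0527% (ZT4), 0.0762% (ZT8), 0.0234% (ZT12), 0.129% (ZT16) and 0.0586% (ZT20). An unadjusted p under 0.05 was reached by 6 of the 36 (16.7%), against 5.94% of all pairs of gene and time. Sirt1 gave 2 of them with opposite signs. At ZT8 the KO libraries had 43.0, 53.0, 47.8 and 53.9 CPM and the WT libraries had 39.1, 39.5, 46.5 and 40.2 CPM. At ZT12 the KO libraries had 49.4, 51.6, 39.0 and 44.1 CPM and the WT libraries had 62.7, 54.1, 58.4 and 44.6 CPM. The fold changes were 0.26 ± 0.12 at ZT8 and -0.26 ± 0.12 at ZT12 (SE; adjusted p = 1.00 and 0.994 in edgeR), and the ranges overlapped at both times. With a term for the level of immediate early genes, described with the time course of Sirt1, they were 0.12 at ZT8 and -0.12 at ZT12. That list of genes was drawn up after the Sirt1 values were seen, so the values with this term are a description. Nmnat3 at ZT16 (0.24 ± 0.12) and Naprt at ZT8 (-0.16 ± 0.07) were the others beside Nampt at ZT16 and Nadk at ZT20. Ranges of KO and WT libraries overlapped for every one of the 6 genes at every time. The test that the label difference varies over the day called none of the 6 genes and 0% of all genes in edgeR, with 6.1% of all genes at an unadjusted p under 0.05. Sirt1 was the 1 gene of the 6 under that level, with an unadjusted p = 0.046 and an adjusted p = 0.805 in edgeR.

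**Figure D2:**
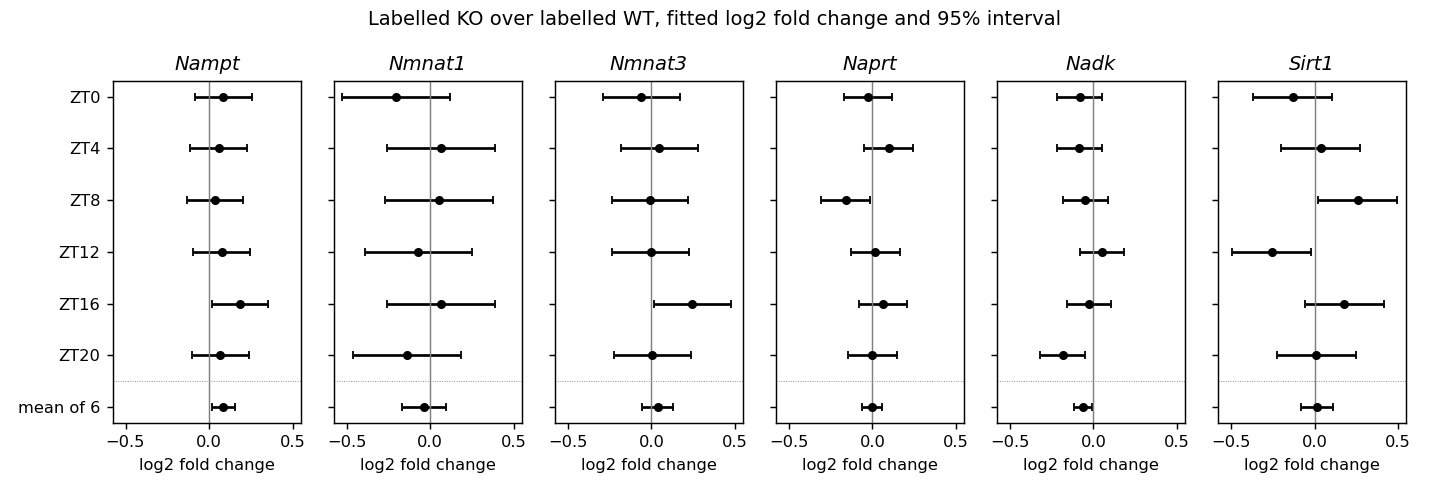
Fitted log2 fold change of KO over WT (points) with 95% intervals (bars) for each gene at each time and averaged over the 6 times. All averages lie between -0.06 and 0.08, and the single times between -0.26 and 0.26.

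The second question was whether the genes changed over the day. A cosine with a period of 24 h was fitted within each label, and amplitudes below are its rise above the mean on the log2 scale (SE by jackknife over libraries). Averaged over both labels, 3 of 6 genes were called rhythmic: Nampt, Nadk and Nmnat3, against 26.6% of all genes. Their rhythms were shallow. Trough and peak differed 1.196-fold for Nampt, 1.15-fold for Nadk and 1.18-fold for Nmnat3, and the median amplitude of the 4533 genes called was 0.14. The other 3 genes were not called, with adjusted p = 0.217 for Naprt, 0.919 for Sirt1 and 0.962 for Nmnat1 in edgeR.

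Nampt was highest at ZT16. Its KO group means were 49.4 ± 3.16 CPM (ZT0), 47.6 ± 3.20 (ZT4), 46.3 ± 4.74 (ZT8), 53.7 ± 7.98 (ZT12), 59.8 ± 5.99 (ZT16) and 50.9 ± 3.58 (ZT20) (SD, n = 4 each). Its WT group means were 46.7 ± 4.85 CPM (ZT0), 45.7 ± 1.27 (ZT4), 45.3 ± 3.58 (ZT8), 51.1 ± 2.18 (ZT12), 52.6 ± 5.89 (ZT16) and 48.6 ± 2.61 (ZT20). In both labels ZT16 was the highest time and ZT8 the lowest. Every KO library at ZT16 was above every KO library of ZT0, ZT4, ZT8 and ZT20. ZT16 was picked as the highest time from these same values, and the share of all genes with such a separation was not worked out. At ZT8, KO libraries had 43.7, 52.6, 41.8 and 47.3 CPM and WT libraries had 39.9, 46.9, 47.3 and 46.9 CPM, so the labels overlapped at the low point too.

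The fitted rhythm of Nampt over both labels had an amplitude of 0.13 ± 0.02 and a peak at ZT16.0 ± 0.677 h (adjusted p = 0.000348 in edgeR). In KO alone the amplitude was 0.15 ± 0.03 (adjusted p = 0.00719), and in WT alone it was 0.11 ± 0.03 (adjusted p = 0.103). The difference in rhythm between the labels was not called (adjusted p = 1.00), and it was called for 0% of all genes (2.31% at an unadjusted p under 0.05, and none of the 6 genes). Rhythm within a label was called for 2 of 6 genes in KO (12.2% of all genes) and 1 of 6 in WT (11.6%). The call in KO rested on 1 library: without the KO library at ZT16 with 68.4 CPM the amplitude was 0.12 and the adjusted p was 0.0578. In WT, terms for sex-linked expression gave an adjusted p = 0.0121.

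Nadk was low at ZT4 and ZT8 and higher from ZT12 on. Its KO group means were 90.002 ± 5.92 CPM (ZT0), 80.5 ± 5.55 (ZT4), 82.7 ± 8.54 (ZT8), 96.0 ± 4.63 (ZT12), 92.6 ± 1.66 (ZT16) and 89.7 ± 6.68 (ZT20). Its WT group means were 95.3 ± 5.70 CPM (ZT0), 85.4 ± 4.66 (ZT4), 85.6 ± 6.28 (ZT8), 92.7 ± 8.03 (ZT12), 94.4 ± 5.91 (ZT16) and 102 ± 5.27 (ZT20). ZT4 and ZT8 were the lowest times in both labels. In the order of the 12 groups, WT at ZT20 stood above the next group, KO at ZT12, by more than the larger of their SDs, and every other pair of neighbours was within it. Xist was above 100 CPM in 4 of 4 WT libraries at ZT20 and 3 of 4 KO libraries at ZT12. Sex was thus uneven over the groups, and these means carry no term for it.

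The rhythm of Nadk over both labels had an amplitude of 0.10 ± 0.02 and a peak at ZT17.7 ± 0.714 h (adjusted p = 0.000502 in edgeR). It was called in KO, with an amplitude of 0.10 ± 0.02 and a peak at ZT16.3 ± 1.12 h (adjusted p = 0.039). It was also called in WT, with an amplitude of 0.12 ± 0.02 and a peak at ZT19.0 ± 0.792 h (adjusted p = 0.0117). The difference between the labels was not called (unadjusted p = 0.159, adjusted p = 1.00 in edgeR). The call in KO ended when any 1 of 8 KO libraries was left out, with adjusted p between 0.056 and 0.092: replicates 2, 3 and 4 at ZT4, replicates 1, 2 and 4 at ZT8, replicate 3 at ZT16 and replicate 2 at ZT20. It also ended with no filter on low counts (adjusted p = 0.0665).

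Nmnat3 was lowest at ZT0. Its KO group means were 6.91 ± 0.654 CPM (ZT0), 8.38 ± 1.64 (ZT4), 9.004 ± 0.731 (ZT8), 8.20 ± 0.380 (ZT12), 9.10 ± 1.42 (ZT16) and 7.90 ± 0.535 (ZT20). Its WT group means were 7.2 ± 1.37 CPM (ZT0), 8.11 ± 0.509 (ZT4), 9.06 ± 0.454 (ZT8), 8.23 ± 0.917 (ZT12), 7.68 ± 0.598 (ZT16) and 7.87 ± 0.686 (ZT20). At ZT0, KO libraries had 6.31, 7.78, 7.02 and 6.52 CPM and WT libraries had 8.91, 7.08, 5.55 and 7.26 CPM, so 1 WT library at ZT0 stood inside the range of the WT libraries at ZT8.

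Over both labels Nmnat3 had an amplitude of 0.12 ± 0.03 and a peak at ZT10.3 ± 1.02 h (adjusted p = 0.0287 in edgeR). In neither label alone was it called (adjusted p = 0.175 in KO and 0.264 in WT). The call over both labels ended without any 1 of 5 libraries, with adjusted p of 0.0545, 0.0542 and 0.0607 without KO replicates 1, 3 and 4 at ZT0, 0.0502 without KO replicate 4 at ZT8, and 0.0514 without WT replicate 3 at ZT0.

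Beside the clock these rhythms were small. In the list of 17 core clock genes, 16 were called rhythmic over both labels, with a median amplitude of 1.09 over all 17 and a range of 0.19 to 2.36. Bmal1, listed in the annotation as Arntl, peaked at ZT23.6 ± 0.137 h with an amplitude of 0.97 ± 0.03. Its levels at ZT12 were 20.7 ± 1.90 CPM in KO and 19.4 ± 2.50 CPM in WT, and at ZT0 they were 72.4 ± 7.03 CPM in KO and 73.4 ± 5.37 CPM in WT. Per2, a clock repressor, peaked at ZT13.9 ± 0.144 h with an amplitude of 2.36 ± 0.07. The peaks of Nampt and Nadk lay between those of Per2 and Bmal1 in time of day, and that of Nmnat3 lay before that of Per2.

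**Figure D3:**
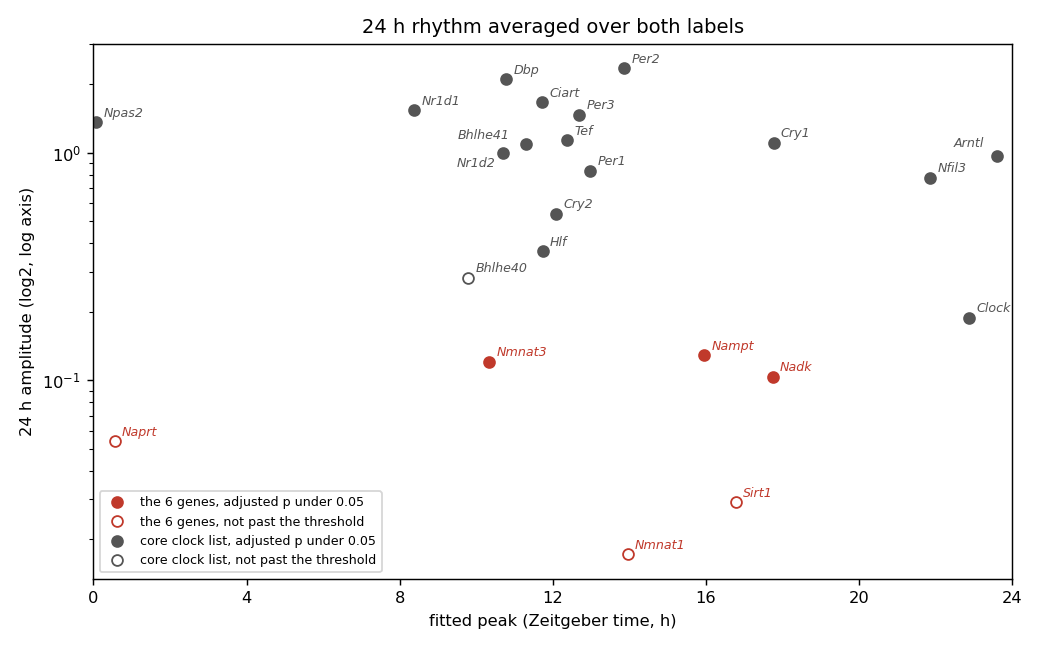
Amplitude of the fitted 24 h rhythm over both labels (log2 units, log axis) against fitted peak time (hours). Red points are the 6 genes and grey points are the core clock list, filled where the adjusted p is under 0.05. Nampt, Nadk and Nmnat3 have amplitudes of 0.13, 0.10 and 0.12, below Clock at 0.19, the lowest of the clock list.

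Sirt1 changed over the day without a 24 h rhythm. It was low at ZT4 and ZT16, and it was higher at the times between. At ZT4 its levels were 36.6, 34.8, 38.2 and 40.0 CPM in KO libraries and 36.4, 39.2, 33.8 and 36.4 CPM in WT libraries. At ZT16 they were 39.5, 41.1, 40.2 and 46.6 CPM in KO and 35.1, 34.3, 38.1 and 40.3 CPM in WT. At ZT0 they were 47.2, 55.0, 41.3 and 50.7 CPM in KO and 71.2, 55.3, 38.6 and 47.5 CPM in WT. Every KO library at ZT0 was above every KO library at ZT4, and 1 WT library at ZT0 fell inside the range of WT at ZT4. These times were picked from the same values, and the share of all genes so separated was not worked out.

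At ZT20 the Sirt1 levels were 49.4, 41.3, 40.9 and 51.3 CPM in KO and 42.9, 46.7, 51.5 and 40.5 CPM in WT. By group mean the order ran from WT at ZT12 (54.9 ± 7.75 CPM) through WT at ZT0 (53.2 ± 13.8), KO at ZT8 (49.4 ± 5.06), KO at ZT0 (48.6 ± 5.78), KO at ZT12 (46.0 ± 5.62), KO at ZT20 (45.7 ± 5.43), WT at ZT20 (45.4 ± 4.82), KO at ZT16 (41.8 ± 3.26), WT at ZT8 (41.3 ± 3.50), KO at ZT4 (37.4 ± 2.22) and WT at ZT16 (37.0 ± 2.74) down to WT at ZT4 (36.5 ± 2.22). Of the steps in this order, the one from WT at ZT8 to KO at ZT4 exceeded the larger SD of its pair, and the others did not.

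A test for any change over the 6 times called Sirt1 in WT (adjusted p = 0.000234 in edgeR) and not in KO (adjusted p = 0.094). The test that the label difference varies over the day did not call it, as given above. In KO the adjusted p was 0.0367 and 0.0429 without WT replicates 1 and 3 at ZT0, and 0.0465 with terms for sex-linked expression. In WT this test called 2 of 6 genes, Sirt1 and Nadk (adjusted p = 0.0196), against 28.6% of all genes. In KO it called 2 of 6, Nampt (adjusted p = 0.0151) and Nadk (adjusted p = 0.0331), against 15.8% of all genes.

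The call of Sirt1 in WT was kept without any 1 of the 48 libraries (adjusted p 1.47e-05 to 0.00161 in edgeR), and the other calls moved with single libraries. Nampt in KO had an adjusted p = 0.125 without KO replicate 2 at ZT16. Nadk in WT had 0.0589 without WT replicate 4 at ZT20. Nadk in KO was not called without any 1 of 8 KO libraries (adjusted p 0.0525 to 0.0895): replicates 2, 3 and 4 at ZT4, 1, 2 and 4 at ZT8, and 1 and 3 at ZT12. Nmnat3 was called in KO without replicate 1 at ZT4 (adjusted p = 0.0279) or replicate 1 at ZT16 (0.0283), and Naprt was called in WT without replicate 1 at ZT4 (0.0287).

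Averaged over both labels, the test for any change over time called 5 of 6 genes, all but Nmnat1 (adjusted p = 0.628), against 45% of all genes. Naprt was among them (adjusted p = 0.0316 in edgeR), with its lowest mean at ZT12. There its levels were 24.4, 24.7, 23.9 and 25.2 CPM in KO and 22.5, 24.99, 23.3 and 26.2 CPM in WT. Its highest mean was at ZT20, with 26.1, 29.7, 27.5 and 26.9 CPM in KO and 27.6, 29.7, 24.6 and 28.4 CPM in WT. The groups did not overlap in KO and overlapped in WT. They were picked as the lowest and highest times from these same values, and the share of all genes so separated was not worked out. The call ended without KO replicate 2 at ZT20 (0.0602), WT replicate 3 at ZT12 (0.0531) or WT replicate 2 at ZT20 (0.0619). The exons of Naprt share 277 of 2344 bases with Eef1d on the same strand, and how reads there were assigned is not given in the sources used here.

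Terms with a period of 12 h, added after the Sirt1 values were seen, were called for 1 of 6 genes, Sirt1, against 27.7% of all genes. Its amplitude was 0.24 ± 0.04 (adjusted p = 1.83e-05 in edgeR), a 1.39-fold difference between trough and peak. The call was kept without any 1 of the 48 libraries, with amplitudes of 0.215 to 0.255. Nmnat3 was called too without KO replicate 1 at ZT4, KO replicate 1 at ZT16 or WT replicate 1 at ZT0 (adjusted p 0.027 to 0.0353), and Naprt was called without KO replicate 3 at ZT0 or WT replicate 4 at ZT0, 1 at ZT4, 4 at ZT12 or 3 at ZT20 (0.0225 to 0.0477).

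The genes most like Sirt1 over the groups included an immediate early gene, one of those that cells switch on within minutes of a stimulus. Among 14151 genes averaging 1 CPM or more, those with group means most like those of Sirt1 over the 12 groups were an ID with no symbol in the annotation (100862382, Pearson r = 0.970 on log2 CPM), Fosl2 (0.970), an AP-1 subunit, and Ptgs2 (0.968), which makes prostaglandins. Libraries and their depth are shared by all of these genes, and the likeness is a description. Fosl2 at ZT4 averaged 210 ± 16.6 CPM in KO and 189 ± 32.5 CPM in WT, and at ZT12 it averaged 263 ± 30.5 CPM in KO and 312 ± 65.0 CPM in WT. Ptgs2 at ZT4 averaged 9.03 ± 2.22 CPM in KO and 8.72 ± 4.00 CPM in WT, and at ZT12 it averaged 26.0 ± 9.85 CPM in KO and 43.3 ± 7.38 CPM in WT.

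A list of 22 immediate early genes that includes Fosl2 was drawn up after these values were seen. The 12 h terms called 22 of 22, with amplitudes of 0.20 to 1.54, against 27.7% of all genes. The 24 h rhythm over both labels called 0 of 22 in edgeR (1 at an unadjusted p under 0.05, Ier5), against 26.6% of all genes. Since the list and the 12 h terms were both chosen after the Sirt1 values, these counts are a description and no independent support. Summed over the list, levels at ZT4 ran from 9562 to 15300 CPM in KO and 7446 to 16597 CPM in WT, and at ZT16 from 7648 to 18608 CPM in KO and 8742 to 14866 CPM in WT. At ZT0 they ran from 23071 to 25039 CPM in KO and 13500 to 30769 CPM in WT, and at ZT12 from 14804 to 28987 CPM in KO and 22453 to 28713 CPM in WT. The group means of this sum were lowest at ZT4 and ZT16 in both labels, the low times of Sirt1.

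With the mean log2 level of this list as a term in the fit, the 12 h amplitude of Sirt1 was 0.07 (adjusted p = 0.0931 in edgeR). Its change over time was then not called in WT (adjusted p = 0.197), in KO (0.291) or over both labels (0.13). The list was drawn up after the Sirt1 values were seen and includes Fosl2, named above for its likeness to Sirt1. A smaller Sirt1 amplitude was thus favoured by the choice of list, and these values are a description only. With the same term, 24 h amplitudes over both labels were 0.13 for Nampt (adjusted p = 0.00035), 0.10 for Nadk (0.000508) and 0.12 for Nmnat3 (0.0274). The term also carries any real time of day in the list, and it called the 12 h terms of Nampt, Nmnat1, Nmnat3 and Nadk, which were not called without it. Which animals were handled in the same session is not given in the sources used here, and the part of handling in these values was not tested.

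**Figure D4:**
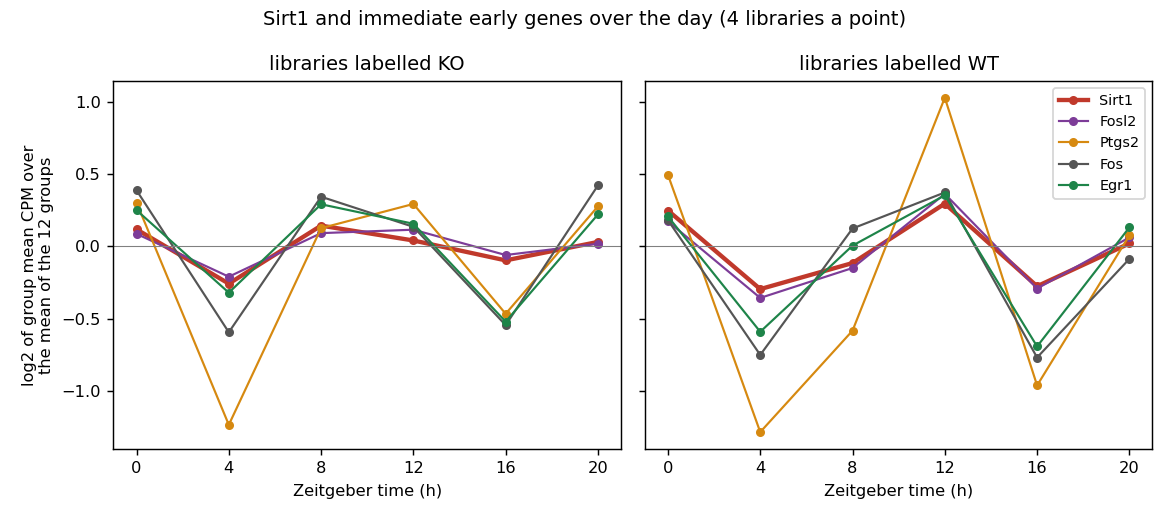
Group mean CPM of Sirt1 and of Fosl2, Ptgs2, Fos and Egr1 (log2 of its ratio to the mean of the 12 groups) against Zeitgeber time in hours, for KO on the left and WT on the right, with 4 libraries a point. All 5 genes are lowest at ZT4 or ZT16 in both labels.

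Without that term Nmnat1 was called in no test of label or time, and it had the widest scatter between replicates. Its levels at ZT0 were 2.72, 3.38, 2.94 and 2.704 CPM in KO and 2.09, 3.64, 4.13 and 3.66 CPM in WT. At ZT4 they were 2.75, 3.63, 2.59 and 2.48 CPM in KO and 3.50, 2.13, 2.68 and 2.66 CPM in WT. The SD within groups was 0.23 on the log2 scale for Nmnat1, against 0.10 for Nadk, 0.10 for Naprt, 0.12 for Nampt, 0.17 for Nmnat3 and 0.18 for Sirt1. Over the 12 group means, Nmnat1 and Sirt1 had a Pearson r of 0.85, the highest among the 6 genes, with the next at 0.49 for Nmnat1 and Nadk. The genes most like each of the others over the 12 groups were Ikzf5 for Nampt (r = 0.939), Gm128 for Nmnat1 (0.913), Bckdha for Nmnat3 (0.931), Rab22a for Naprt (0.881) and Cracdl for Nadk (0.942).

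Of 34 other genes of NAD synthesis, transport and use, 26 had enough counts to be tested. Their median log2 fold change averaged over the times was 0.02, and none was called (0 at an unadjusted p under 0.05 in edgeR). Over both labels, 8 of 26 were called rhythmic, against 26.6% of all genes, a share too close to read as a property of NAD genes, and 3 of the 8 had an amplitude of at least 0.2. The largest was that of Nmnat2, the NMNAT best known from nerve axons, at 0.79 ± 0.05 with a peak at ZT7.5 ± 0.335 h (adjusted p = 1.81e-09 in edgeR). At ZT8 it averaged 2.80 ± 0.406 CPM in KO and 2.55 ± 0.196 CPM in WT, and at ZT20 it averaged 0.778 ± 0.070 CPM in KO and 0.844 ± 0.184 CPM in WT. In both labels the ZT8 mean was the highest of the 6 times, and the means at ZT16 and ZT20 were below 1 CPM.

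Pnp, which splits nicotinamide riboside and other nucleosides, peaked at ZT14.7 ± 0.497 h with an amplitude of 0.21 ± 0.03 (adjusted p = 5.09e-05 in edgeR). At ZT12 it averaged 57.4 ± 6.48 CPM in KO and 62.1 ± 3.29 CPM in WT, and at ZT4 it averaged 39.3 ± 1.32 CPM in KO and 39.7 ± 3.38 CPM in WT. Nnt, a mitochondrial enzyme that passes hydride between NADH and NADP, had an amplitude of 0.22 ± 0.06 and a peak at ZT7.2 ± 0.823 h (adjusted p = 0.0403 in edgeR). That call ended without any 1 of 13 libraries (adjusted p 0.0509 to 0.0776): KO replicates 1 at ZT4, 2 and 4 at ZT8, 4 at ZT16 and 2 at ZT20, and WT replicates 3 at ZT4, 2 and 3 at ZT8, 1 and 4 at ZT16, and 1, 2 and 3 at ZT20. It also ended with no filter on low counts (0.0548). The other 5 called genes had amplitudes of 0.05 to 0.14.

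Among the 6 other sirtuins, 1 was called rhythmic, Sirt5 of the mitochondria (amplitude 0.14 ± 0.04, adjusted p = 0.0438 in edgeR), and none was called by label. Of the genes of NAD synthesis from tryptophan, Tdo2, Ido1, Ido2, Kmo and Qprt had at most 9 counts in any library, while Afmid, Kynu, Haao and Acmsd had enough to be tested. Nnmt, which methylates nicotinamide for removal, and Cd38, which cleaves NAD, had at most 4 counts. These levels are those of the epidermal suspension as a whole.

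**Figure D5:**
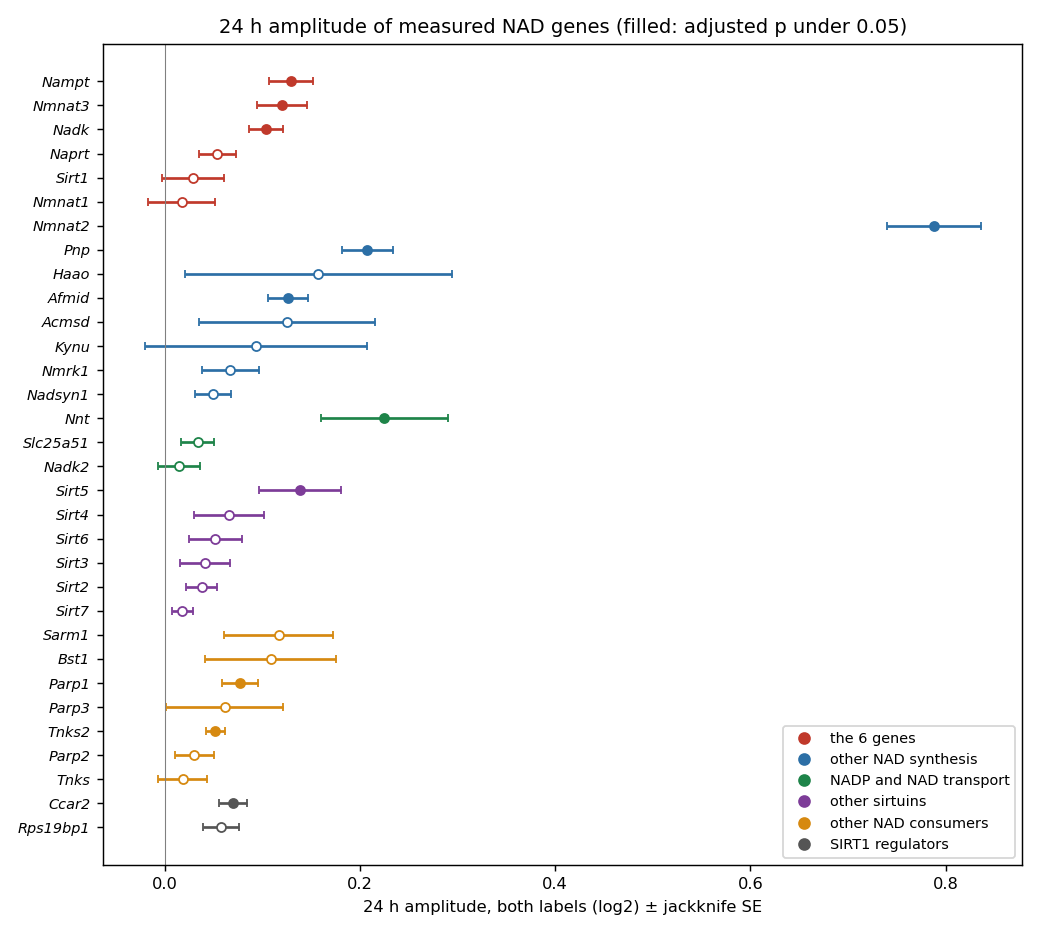
Amplitude of the fitted 24 h rhythm over both labels (log2, points) with jackknife SE (bars) for the 6 genes and for 26 other measured NAD genes, grouped by role in colour and filled where the adjusted p is under 0.05. Nmnat2 at 0.79 stands apart from the other genes, which have amplitudes of up to 0.22.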

How the data were processed

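The authors deposited raw counts per gene for 48 libraries, keyed by Entrez gene ID. The submitters' processing notes name STAR 2.7.10a, featureCounts and Trim Galore, and the build GRCm38 (mm10). What each tool did, which annotation was counted and how strand was set is not given in the sources used here. Per the labels' protocols, the kit was a stranded polyA one. Symbols and positions were matched by ID through RefSeq (25275 IDs) and GENCODE (18). The filter on low counts was filterByExpr given the 12 groups (17068 of 27179 IDs kept); counts were then scaled by TMM (factors 0.919 to 1.07) in edgeR 4.0.16 (R 4.3.3), and CPM use these scaled totals.

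All 48 libraries entered 1 fit of 12 group means and 1 fit of a 24 h cosine within each label, tested with glmQLFit (robust) and glmQLFTest, with Benjamini-Hochberg adjustment over all genes tested and a threshold of 0.05. Jackknife errors leave out libraries within groups, and 95% intervals are normal ones. P-values set a fitted difference against the spread between libraries that the fit leaves over, in an estimate that borrows from all genes tested. The fit was tested on simulated data.

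The 6 genes and the lists were chosen with earlier results of these data known. The text names all 6 genes, listed genes called by label or rhythmic with an amplitude of at least 0.2, and the genes with the most similar group means. The time test averaged over both labels, the 12 h terms, the immediate early list and the term made from it were added after values were seen. Alternatives were limma-voom (limma 3.58.1), DESeq2 1.42.0, size factors by RLE, no filter, 1 CPM in 24 libraries, the replicate number as a block, terms for sex-linked expression or fibroblast markers, leaving out 3 WT libraries, and each of the 48 libraries left out in turn. Sirt1 shares 65 exon bases with Gm16145 on the other strand. No other transcript matched one of the 6 genes at 90% identity over 300 bases.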

Additional observations from a re-analysis of the deposited data

Results flagged for a closer look

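In 7 of the 72 groups of gene, label and time, 1 library stood apart from the other 3 by more than the 95% critical value of Dixon's test. Chance alone gives about 1 in 20 such groups. For Nampt these were WT replicate 2 at ZT4, with 43.9 CPM against 46.2 CPM in the next library, and WT replicate 1 at ZT8, with 39.9 CPM against 46.9 CPM. For Nmnat1 it was KO replicate 3 at ZT20, with 3.51 CPM against 2.75 CPM. For Nmnat3 it was WT replicate 3 at ZT16, with 8.57 CPM against 7.48 CPM. For Nadk these were KO replicate 3 at ZT12, with 103 CPM against 94.4 CPM, and KO replicate 2 at ZT20, with 99.7 CPM against 87.1 CPM. For Sirt1 it was WT replicate 3 at ZT8, with 46.5 CPM against 40.2 CPM.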

How the results depend on the processing

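No alternative called a difference between the labels for any of the 6 genes, in the average, at a single time or in the interaction. With terms for sex-linked expression the averaged log2 fold change had the opposite sign for Nmnat1 (0.0183), Nmnat3 (-0.00738), Naprt (0.00438) and Sirt1 (-0.0164). Naprt also turned with limma-voom (0.00171), with a fibroblast term (0.00143) and without 3 WT libraries, replicates 3 and 4 at ZT4 and 2 at ZT16 (0.0259), and Sirt1 turned with the immediate early term (-0.0140). The cause was not tested. Over single libraries left out, the averages ran from -0.0169 to 0.00695 for Naprt and -0.00427 to 0.0456 for Sirt1. Counts called then ran from 1 to 3 for the time effect in KO and in WT, 1 to 2 for the 12 h terms, and 1 to 2 for rhythm in KO. Of the 6 genes, 1 was called for time in WT without the 3 WT libraries (Nadk then had an adjusted p = 0.0624), 1 for rhythm in KO with no filter, 2 for rhythm in WT with sex-linked terms, and 4 for the 12 h terms with the immediate early term. The averaged label effect was called for 58 of all genes, and for 136 with sex-linked terms. Whether replicate numbers pair libraries across the labels was not tested. Of 24 pairs, 11 had a correlation of deviations over 0.1, with a median of 0.09 (-0.36 to 0.64). Pairs of replicate 1 had 0.64 (ZT0), 0.36 (ZT4), 0.34 (ZT8), 0.23 (ZT12), 0.38 (ZT16) and 0.07 (ZT20). With the replicate number as a block, the counts were unchanged, with 0 genes called by label, 3 for rhythm over both labels and 2 for rhythm in KO. Depth limits Nmnat1 most, at 84 to 171 counts a library.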
